A study of Mus musculus with 20 samples.

Results

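The 10 genes described here encode chaperones of the cytosol and of mitochondria whose transcripts are known to rise in heat shock. They were Hspa1a, Hspa1b and Hspa8 (HSP70 family), Hsph1 (HSP110), Hsp90aa1 (HSP90), Dnaja1 and Dnajb1 (J-domain co-chaperones), Hspd1 and Hspe1 (mitochondrial chaperonin) and Hspb1 (a small heat shock protein). They were chosen by their group levels and fold changes between the groups of these same libraries, so those values are given as a description. They were taken by symbol from a table of 38924 mouse genes, where each of the 10 had 1 row. In GRCm38 coordinates the genes were at chr17:34969199-34972154 (Hspa1a), chr17:34956436-34959238 (Hspa1b), chr5:149614287-149636376 (Hsph1), chr9:40800984-40805200 (Hspa8), chr12:110690605-110702728 (Hsp90aa1), chr4:40722150-40737149 (Dnaja1), chr8:83608175-83611902 (Dnajb1), chr1:55077835-55088243 (Hspd1), chr1:55088132-55091307 (Hspe1) and chr5:135887919-135889563 (Hspb1). All 10 passed the filter on low values (FPKM, fragments per kilobase of transcript scaled to library depth, above 0.5 in at least 5 libraries) and stood among the 14524 genes tested, and the least abundant, Hspa1a, exceeded 0.5 FPKM in 18 of 20 libraries.

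Heat shock proteins hold unfolded proteins in a state from which they can fold. An HSP70 protein binds an exposed stretch of a client, a J-domain protein delivers the client and starts ATP hydrolysis, and a nucleotide exchange factor such as an HSP110 protein ends the cycle. HSP90 matures kinases and steroid receptors, and the HSP60 and HSP10 chaperonin encloses clients in the mitochondrial matrix. The transcription factor HSF1 drives the inducible members in stress by binding heat shock elements, alternating inverted repeats of the letters GAA and TTC, and the liver, a major site of protein synthesis, expresses the constitutive members at high levels.

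The libraries were poly(A) RNA-seq of liver from 20 male mice in 4 groups of 5. NDWT mice were C57BL/6J on control chow, NDKO mice carried the TSP-1 knockout allele (thrombospondin 1, Thbs1) on the same chow, and HFWT and HFKO were the matching genotypes on CDAHFD, a choline-deficient, amino acid-defined, high-fat chow used as a model of NASH. Mice were bought at 5 weeks of age, were held for 1 week, and stayed on their diet for 12 weeks. The knockout is germline, present in all cells, and the WT mice were purchased controls and are not stated to be littermates. Each library is 1 mouse, and p-values measure the spread between mice of a group.

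Libraries held 15641545 to 23276322 assigned fragments. Thbs1 went against the genotype labels on the control diet. Its FPKM was 0.17, 0.326, 0.268, 0.058 and 0.165 in NDWT and 1.005, 1.5, 0.986, 1.895 and 1.132 in NDKO, while CDAHFD gave 5.766, 6.099, 3.46, 3.913 and 3.858 in HFWT and 3.304, 3.316, 3.048, 3.141 and 4.398 in HFKO. A count per gene does not show which exons were read, so the allele itself could not be checked, and the groups are named below as labelled TSP-1 null or WT. Hepatocyte markers (6 of 6 in the table) summed to 25307 to 44648 FPKM in the 20 libraries. Library NDKO5 stood apart in the chaperones. Values without it are given where a sign or a call of these chaperones turned on it, and for some sizes.

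Promoters are shown first because HSF1 acts through them. RefSeq promoter windows (GRCm38.p6, 250 bases before to 50 after a start) matched 8 of the 10 genes. Both strands were searched for 2 adjoining inverted units (GAANNTTC or TTCNNGAA, which are their own reverse complements), 3 units (GAANNTTCNNGAA or TTCNNGAANNTTC, which contain both pairs) and 4 units (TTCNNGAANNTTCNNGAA, which contains the shorter ones). A pair stood in a window of 7 of the 8 genes, all but Dnajb1, where 16.97% of the 27025 genes in the table, and 15.06% of its 32851 windows, held one. A triplet stood in windows of Hsph1, Hspd1 and Hspe1, where 0.6623% of genes held one, and 4 units stood in those of Hspd1 and Hspe1, where 0.0185% of genes held them. A match is a description of letters, and binding was not measured. Only exact letters and spacing were searched, so elements with other letters in a unit would be missed.

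The 250 bases before the start of the inducible HSP70 genes show how alike the pair is. Capitals mark the GAANNTTC match, 104 bases before the start in both. Hspa1a is at chr17:34972157-34972406 and Hspa1b at chr17:34959239-34959488, both on the minus strand and with no annotated exon.
Hspa1a: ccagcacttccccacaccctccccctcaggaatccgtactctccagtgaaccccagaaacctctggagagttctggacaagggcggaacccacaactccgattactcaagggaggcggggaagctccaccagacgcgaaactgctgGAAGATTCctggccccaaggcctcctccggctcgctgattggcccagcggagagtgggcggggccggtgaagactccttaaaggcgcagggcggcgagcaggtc
Hspa1b: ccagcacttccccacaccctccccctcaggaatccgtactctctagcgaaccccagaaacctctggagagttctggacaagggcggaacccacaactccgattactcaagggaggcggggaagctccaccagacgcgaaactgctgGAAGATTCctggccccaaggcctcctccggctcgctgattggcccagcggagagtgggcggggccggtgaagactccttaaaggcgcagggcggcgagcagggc
They differed at 3 of these 250 bases, C44T, T47C and T249G (Hspa1a base, position counted from 1 at the 5′ end of the sequence, Hspa1b base), and were 98.8% identical.

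The other genes are shown as short windows around the capitals. Hspd1 and Hspe1 lie head to head and share 1 run of 4 units at chr1:55088054-55088081, written for each on its own strand (minus and plus). On the strand of each gene it begins at base −144 from 1 of 2 Hspd1 starts and at base −89 from the Hspe1 start, within annotated Hspd1 exon (UTR). The window of the other Hspd1 start held no match, and the run lies downstream of that start. The Hsph1 triplet at chr5:149636283-149636305 (minus) begins 16 bases after 1 of its 2 starts, in annotated exon (UTR). A separate Hsph1 pair, in the window at chr5:149636352-149636379 (minus), stands 33 and 54 bases before those starts. It too lies in annotated Hsph1 exon (UTR). The Dnaja1 pair at chr4:40722334-40722361 (plus) stands 124 bases before a RefSeq start, in annotated exon of Dnaja1 and Gm6297, and the Hspb1 pairs at chr5:135887792-135887819 and chr5:135887812-135887839 (plus) stand 117 and 97 bases before its start, outside annotated exons.
Hspd1: gggccTTCCGGAAGGTTCTAGAAcggac
Hspe1: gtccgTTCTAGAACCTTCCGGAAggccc
Hsph1 upstream: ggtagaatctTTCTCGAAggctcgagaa
Hsph1 triplet: gcagaTTCTGGAAAGTTCtcctc
Dnaja1: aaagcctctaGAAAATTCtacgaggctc
Hspb1 distal: ttcaacaagaGAAGTTTCcagatggggg
Hspb1 proximal: gatgggggcaGAACCTTCctggccccgc

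**Figure D1:**
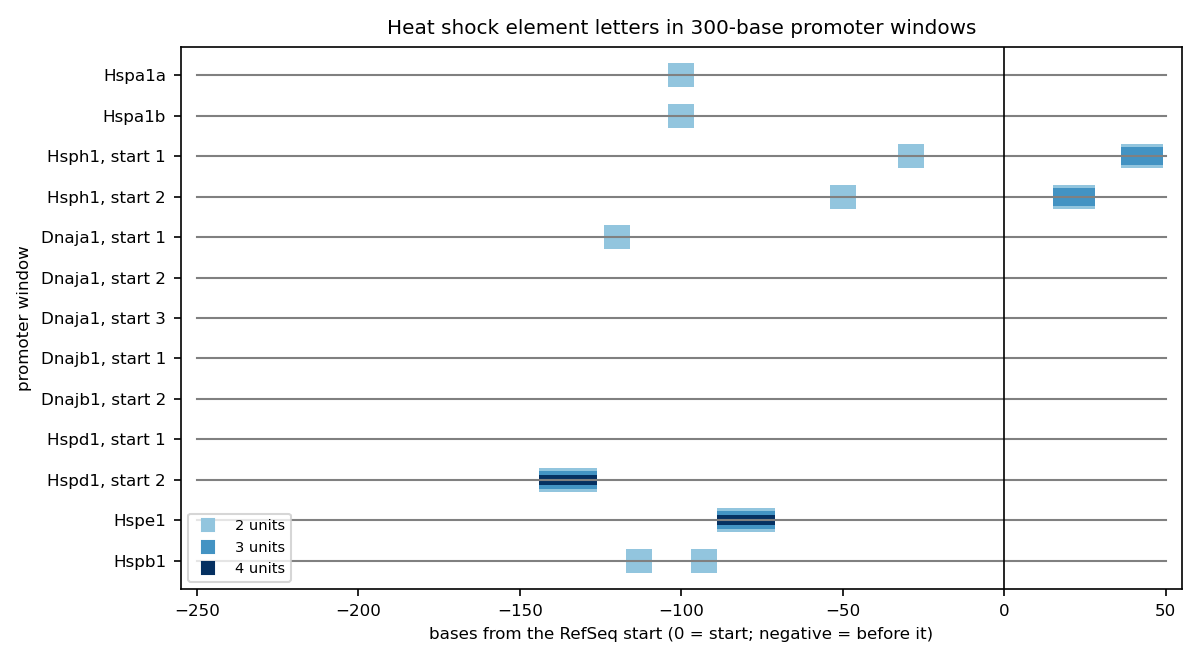
Positions of heat shock element letters in the RefSeq promoter windows of 8 chaperone genes, in bases from the start (x axis), with 1 line per window and light, mid and dark blue for 2, 3 and 4 units. Hspa1a and Hspa1b hold a pair at the same place, Hspd1 and Hspe1 hold the 4-unit run, and neither Dnajb1 window holds a match.

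NDWT livers held the highest mean of all 4 groups for each of the 10 chaperones. For 5 of them (Hspa1b, Hsph1, Hsp90aa1, Dnaja1 and Dnajb1) every NDWT library lay above all 15 other libraries, as was so for 0.833% of the 14524 genes tested. NDWT had the highest mean in 11.3% of those genes. The genes were proposed with this pattern known, so the shares are a description and nothing is read from them. The ratio of NDWT to NDKO means was 8.40 for Hspa1a and 8.18 for Hspa1b, the inducible pair, and 1.18 to 2.41 for the other 8.

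**Figure D2:**
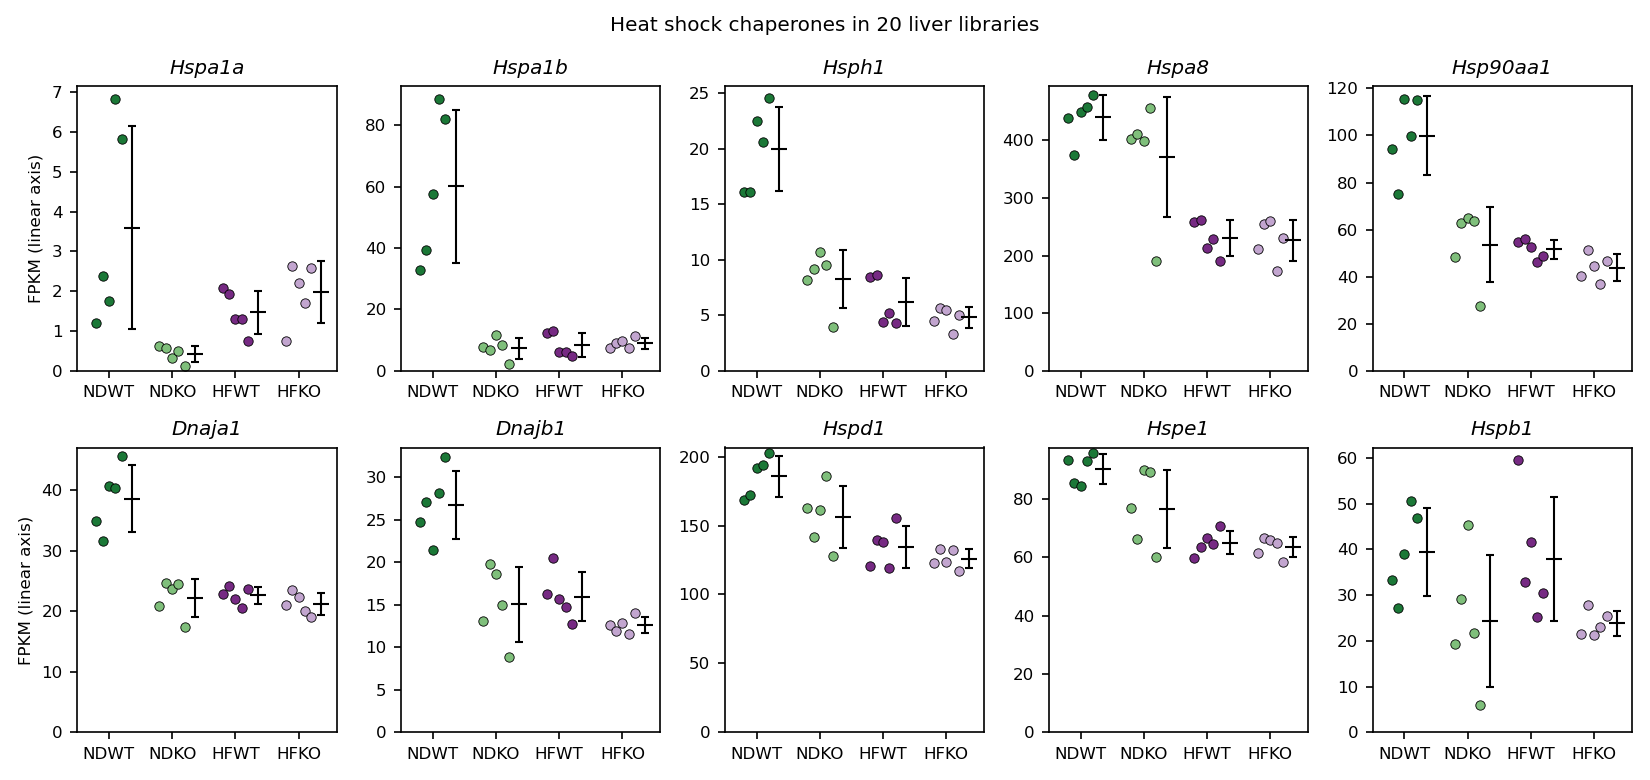
FPKM of the 10 chaperones (y axis, linear, from 0) in each library, by group (x axis), with points in replicate order and the group mean ± SD (n = 5) as a bar beside them. NDWT lies highest, and the right-most NDKO point, library 5, is the lowest of its group in every panel.

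Hspa1b encodes the stress-inducible cytosolic HSP70. Its FPKM was 32.77, 39.269, 57.601, 88.397 and 82.082 in NDWT. The level was 7.761, 6.673, 11.754, 8.392 and 2.1 in NDKO, 12.472, 12.988, 6.001, 6.242 and 4.974 for HFWT mice, and 7.4, 9.237, 9.579, 7.329 and 11.42 in HFKO. NDWT stood clear of the rest, and the other 3 groups overlapped one another. NDWT libraries also differed among themselves, with a mean of 60.0 ± 24.9 FPKM (SD, n = 5). The ratio of group means was 8.18 for NDWT over NDKO, 7.03 over HFWT and 6.67 over HFKO.

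Hspa1a encodes nearly the same protein from a neighbouring copy. Its FPKM was 1.192, 2.392, 1.748, 6.821 and 5.816 in NDWT and 0.623, 0.566, 0.326, 0.508 and 0.117 in NDKO. On CDAHFD it was 2.075, 1.939, 1.302, 1.306 and 0.744 in HFWT and 0.751, 2.639, 2.2, 1.712 and 2.574 in HFKO. NDKO lay below every library of the other groups, which overlapped one another, and its lowest library rested on 7 fragments.

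The pair cannot be read as fully separate genes. Of the 31-base stretches of the annotated Hspa1a transcript, 63.77% also occur in that of Hspa1b, and 67.64% of those of Hspa1b occur in that of Hspa1a. How fragments that fit both were counted is not given in the sources used here, and this limit is not confined to the pair. Such stretches also occur in annotated transcripts of other genes for 55.44% of Hspb1, 53.13% of Hspd1, 51.46% of Hsp90aa1 and 44.82% of Hspa8. The figure was 30.47% for Hspe1, 22.6% for Dnaja1, 0.44% for Dnajb1 and 0% for Hsph1. Hspa1a took 3.10% to 7.53% of the fragments of the pair in NDWT and 2.84% to 8.21% in NDKO, against 13.6% to 18.6% in HFWT and 9.66% to 23.1% in HFKO. The share was thus higher in every CDAHFD library than in any control-diet library, while WT and TSP-1 null libraries overlapped on both diets. Summed over the pair, the log2 fold change was −3.09 (SE 0.38) for TSP-1 null against WT on the control diet and −2.64 (SE 0.38) for CDAHFD against control in WT. It was 0.66 (SE 0.38) for CDAHFD against control in TSP-1 null and 0.21 (SE 0.38) for TSP-1 null against WT on CDAHFD.

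Hspa8, the constitutive HSP70, was the most abundant of the 10 in every group. Its FPKM was 438.139, 375.217, 449.089, 457.633 and 478.665 in NDWT and 401.329, 410.515, 398.109, 456.552 and 190.736 in NDKO. CDAHFD mice had 258.085, 262.414, 213.461, 228.182 and 189.869 in HFWT and 211.297, 254.637, 260.719, 173.571 and 231.297 in HFKO. Both CDAHFD groups overlapped each other, 4 of 5 NDKO libraries lay within the NDWT range, and NDKO5 lay at the CDAHFD level.

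Hsph1, an HSP110 protein that exchanges nucleotide on HSP70, had FPKM of 16.094, 16.082, 22.497, 20.58 and 24.564 in NDWT and 8.146, 9.131, 10.671, 9.524 and 3.912 in NDKO. CDAHFD mice showed 8.472, 8.659, 4.42, 5.197 and 4.288 in HFWT and 4.502, 5.62, 5.51, 3.334 and 5.06 in HFKO. By mean the groups came in the order NDWT, NDKO, HFWT and HFKO, from 20.0 ± 3.81 to 4.81 ± 0.93 FPKM (SD, n = 5), but only NDWT was separate from its neighbour.

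Hsp90aa1, the inducible cytosolic HSP90, had FPKM of 94.208, 75.238, 115.329, 99.84 and 115.043 in NDWT and 48.449, 62.809, 64.925, 63.803 and 27.783 in NDKO. HFWT ranged from 46.42 to 55.822 with a median of 52.489, and HFKO ranged from 36.851 to 51.491 with a median of 44.378. NDWT did not overlap any other group, and neighbours among the other 3 overlapped. Relative to its constitutive partner Hsp90ab1, its FPKM ratio averaged 0.211 ± 0.029 for NDWT and 0.146 ± 0.024 for NDKO, beside 0.154 ± 0.013 for HFWT and 0.130 ± 0.015 for HFKO (SD, n = 5).

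The J-domain proteins Dnaja1 and Dnajb1 pass clients to HSP70. Dnaja1 had FPKM of 34.926, 31.574, 40.618, 40.316 and 45.635 in NDWT, and the other groups lay between 17.369 and 24.711. Dnajb1 had FPKM of 24.68, 27.113, 21.424, 28.119 and 32.317 in NDWT, and the other groups lay between 8.852 and 20.448. For both, the gap lay between NDWT and everything else, and NDKO, HFWT and HFKO overlapped. Dnaja1 overlaps the antisense gene Smu1 at its 3′ end, and whether counting used strand is not given in the sources used here.

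Hspd1 (HSP60) and Hspe1 (HSP10) form the mitochondrial chaperonin. Hspd1 averaged 185.6 ± 14.6 FPKM for NDWT and 156.1 ± 22.3 for NDKO on control chow, then 134.6 ± 15.1 for HFWT and 125.8 ± 6.91 for HFKO (SD, n = 5). Hspe1 had 90.3 ± 5.17, 76.5 ± 13.4, 65.0 ± 3.96 and 63.4 ± 3.44. NDWT overlapped NDKO but lay above all CDAHFD libraries in both genes. The ratio of Hspd1 to Hspe1 held at 2.06 ± 0.17, 2.05 ± 0.15, 2.07 ± 0.14 and 1.99 ± 0.06 in the same order. Their annotated genes overlap in opposite directions at chr1:55088132-55088243.

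Hspb1 (HSP25 in mouse), which holds denatured proteins in large oligomers, had FPKM values that differed widely between mice of a group. Its FPKM was 33.253, 27.199, 39.069, 50.643 and 46.917 in NDWT and 19.267, 29.113, 45.338, 21.784 and 5.901 in NDKO. With CDAHFD it was 59.597, 32.839, 41.72, 25.138 and 30.469 in HFWT and 21.613, 27.78, 21.245, 23.115 and 25.55 in HFKO. Every group overlapped the next in the order of means.

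Diet and genotype were then compared across all genes with limma on log2(FPKM + 0.1), with a gene called at a Benjamini-Hochberg adjusted p (FDR) under 0.05 and an absolute log2 fold change (log2FC) above 0.58. The scale bears on the diet comparisons. The median gene had a log2FC of 0.53 for the diet in WT and 0.50 for it in TSP-1 null, and median of ratios scaling, which centres that median near 0, changed the all-gene split from 6412 higher and 671 lower to 3299 and 2242 in WT. Diet fold changes of the chaperones are therefore given on the FPKM scale, with their median relative to the median gene. No fold change of the chaperones carries a test, because the genes were proposed from this readout.

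On CDAHFD in WT livers, 6 of the 10 chaperones were called lower and none higher, where 4.62% of all genes tested were called lower and 44.1% higher. The log2FC was −2.81 (SE 0.38) for Hspa1b, −1.72 (SE 0.25) for Hsph1, −0.94 (SE 0.18) for Hspa8, −0.94 (SE 0.18) for Hsp90aa1, −0.76 (SE 0.10) for Dnaja1 and −0.74 (SE 0.17) for Dnajb1. Hspa1a at −1.01 (SE 0.45), Hspd1 and Hspe1 at −0.47 (SE 0.09) each and Hspb1 at −0.08 (SE 0.36) were not called. Without NDKO5 Hspa1a was called lower (−1.01, SE 0.42), and it was called in 6 of 20 fits with 1 library left out. Relative to the median gene all 10 were negative, with a median of −1.38, and with median of ratios scaling 9 were called lower. For 8 of 10 the groups did not overlap, where 5.70% of all genes lay wholly lower.

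In TSP-1 null livers the same diet comparison called 2 lower and 1 higher. Hsph1 had a log2FC of −0.72 (SE 0.25) and Hspa8 of −0.67 (SE 0.18), where 4.00% of genes were called lower, and Hspa1a had 1.98 (SE 0.45), where 41.9% were called higher. The other 7 lay between −0.30 and 0.46. Relative to the median gene 9 of the 10 were negative, with a median of −0.71. The Hspa1a value rests on 7 to 38 fragments per NDKO library, and summed with Hspa1b the pair had a log2FC of 0.66 (SE 0.38). Hspa1a alone did not overlap between the groups, where 52.7% of all genes lay wholly higher and 5.03% wholly lower. Hspa1b, at 0.46 (SE 0.38), and Hspb1, at 0.24 (SE 0.36), turned to −0.07 and −0.30 with median of ratios scaling. With that scaling 7 were called lower and 1 higher, and with quantile normalization Hspa1a was no longer called. The set of NDKO libraries is the reference here, and without NDKO5 the log2FC was −0.97 (SE 0.21) for Hsph1, −0.89 (SE 0.12) for Hspa8 and 1.69 (SE 0.45) for Hspa1a. Hspb1 then turned to −0.20 (SE 0.25) and Hspa1b stood at 0.07 (SE 0.31).

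Some cell marker sums differed by diet, and their part in the diet values was not tested. Summed macrophage markers (6 of 6 in the table) ran from 123 to 214 FPKM on the control diet and from 542 to 1188 on CDAHFD, stellate markers (6 of 6) from 8.03 to 13.0 and from 92.8 to 233, and cholangiocyte markers (4 of 4) from 2.05 to 3.85 and from 17.7 to 45.6. Neutrophil markers (3 of 3) summed to at most 3.92 on the control diet and at least 10.4 on CDAHFD, with Ly6g at 0 in NDWT and HFWT. Hepatocyte sums overlapped between diets, at 33328 to 44193 and 25307 to 44648 FPKM. Sums of T cell, B cell, endothelium and erythroid markers overlapped between diets as well. In bulk liver, fewer cells of a type and less RNA per cell cannot be told apart.

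On the control diet, libraries labelled TSP-1 null had 6 of the 10 chaperones called lower than WT and none higher, where 3.03% of all genes tested were called lower and 1.74% higher. The log2FC was −3.10 (SE 0.38) for Hspa1b, −2.63 (SE 0.45) for Hspa1a, −1.32 (SE 0.25) for Hsph1, −0.95 (SE 0.18) for Hsp90aa1, −0.86 (SE 0.17) for Dnajb1 and −0.79 (SE 0.10) for Dnaja1. These are the members for which the groups did not overlap, as 6.69% of all genes lay wholly lower. Hspb1 at −0.93 (SE 0.36), Hspa8 at −0.30 (SE 0.18), and Hspd1 and Hspe1 at −0.26 (SE 0.09) each were not called.

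Leaving out NDKO5 left 6 called lower, with a log2FC of −2.71 (SE 0.31) for Hspa1b, −2.34 (SE 0.45) for Hspa1a and −1.07 (SE 0.21) for Hsph1. It moved Hspa8 to −0.08 (SE 0.12) and Hspb1 to −0.49 (SE 0.25). Median of ratios scaling called 6 lower as well. Marker sums of these groups overlapped, at 132 to 181 and 123 to 214 FPKM for macrophages and 8.03 to 13.0 and 8.44 to 10.6 for stellate cells. Thbs1 runs against the labels in this comparison, so the direction is that of the labels as given.

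On CDAHFD none of the 10 was called between the genotypes by limma, where 0.496% of all genes were called. That count too is a description and carries no test. The log2FC ran from −0.61 (SE 0.36) for Hspb1 to 0.36 (SE 0.45) for Hspa1a, and for all 10 the groups overlapped, where 4.98% of all genes did not. Hspa8, Dnaja1, Hspd1 and Hspe1 changed sign or reached 0.00 with median of ratios scaling.

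The interaction asks whether the genotype difference changed with diet, as the HFKO minus HFWT difference less the NDKO minus NDWT difference. It was 3.27 (SE 0.54) for Hspa1b, 2.99 (SE 0.64) for Hspa1a and 0.70 (SE 0.15) for Dnaja1 on the log2 scale, the 3 members called, where 0.337% of all genes were called higher and 0.310% lower. Hsp90aa1 at 0.71 (SE 0.26), Hsph1 at 1.00 (SE 0.35) and the rest were not called. All 10 values were above 0 with every library, but without NDKO5 Hspb1 went from 0.32 to −0.12 and Hspa8 from 0.27 to 0.04. With 1 library left out in turn, Hspa1b was called in 20 of 20 fits, Dnaja1 in 13 and Hspa1a in 11, and only Hspa1b was called without HFWT replicate 3, HFWT replicate 4, HFKO replicate 2 or HFKO replicate 3. With a replicate block 1 of the 3 was called. The diet and genotype comparisons share groups, NDWT in particular, so neither is independent of the other. With Hspa1a and Hspa1b summed, 2 of 9 were called.

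**Figure D3:**
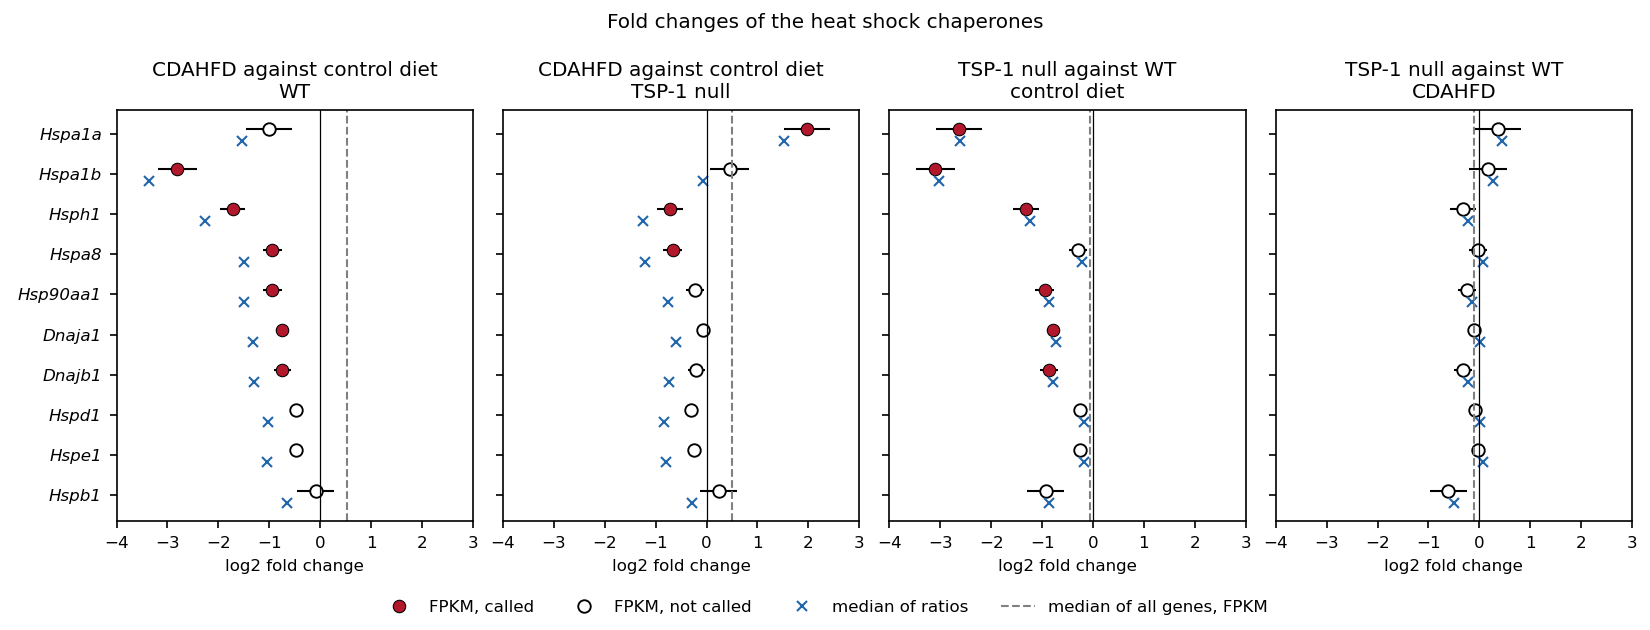
Log2 fold change ± SE of the 10 chaperones (x axis) in the 4 comparisons from limma on all 20 libraries (red, called; white, not called), with the median of ratios estimate (blue cross) and the median of all genes (dashed line). The diet columns shift by about the all-gene median between scales, and 6 of 10 are red in WT by diet and on the control diet by genotype.

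Within a group the chaperones varied together from mouse to mouse. After taking off group means, the 45 pairs of members had a median Pearson r of 0.66 over 20 libraries (0.19 for Dnajb1 with Hspd1, 0.91 for Hspa1b with Hsph1). Over a regular sample of the pairs of all genes tested the median was 0.04. Among cytosolic members r was 0.90 between Hsph1 and Hspa8, 0.89 between Hspa8 and Hsp90aa1 and 0.86 between Hsp90aa1 and Hspb1. For Hspd1 with Hspe1 it was 0.78.

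One library carried much of this. NDKO5 was the lowest of its group in all 10 genes and the lowest of all 20 libraries in 6, with 20216988 assigned fragments, inside the range of the rest. Without it the median r was 0.43 and the extremes were −0.27 and 0.85, and without the 2 libraries farthest from the median (NDKO3 and NDKO5) it was 0.49. In NDWT, libraries 4 and 5 lay above the group mean in all 10 genes. The genes of a library share its depth and its RNA sample, and the values of r are a description.

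**Figure D4:**
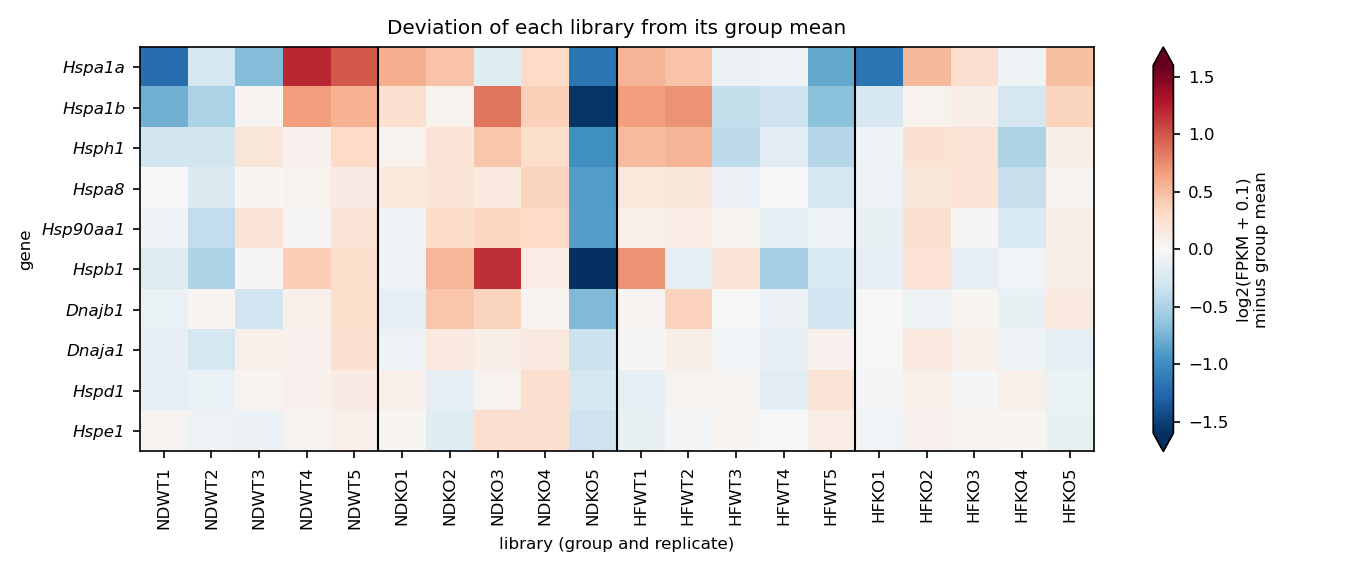
Deviation of log2(FPKM + 0.1) from the group mean (color, red above and blue below) for 10 chaperones (rows) in 20 libraries (columns). The NDKO5 column is blue in all 10 rows, and NDWT4 and NDWT5 are red or near white throughout.

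Genes outside the 10 were ranked by the r of their deviations with the mean deviation of the chaperones. The 8 highest of 14514 were Prmt3 (0.86), Hsp90ab1 (0.85), Map3k5 (0.84), Ociad1 (0.83), Cct3 (0.82), Ppid (0.82), Ddx31 (0.80) and Stip1 (0.80), with Spearman's rho from 0.65 to 0.76. Of these, 4 were in the list of other chaperone genes below: Hsp90ab1, the TRiC subunit Cct3, and the HSP90 co-chaperones Ppid and Stip1. Without NDKO5 the r of the 8 fell to between 0.50 (Map3k5) and 0.75 (Ppid). Likeness of deviation was not likeness of group level, since Prmt3 and Ddx31 were called higher on CDAHFD in both genotypes on the FPKM scale.

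The wider chaperone network (81 other genes in the table, 76 tested) was fitted gene by gene. The list was drawn up with earlier results of these data known, as were the side lists further on, so their FDR values are not those of lists chosen blind. In TSP-1 null against WT on the control diet, 7 of 76 were called lower and none higher, with a median log2FC of −0.11 beside −0.07 for all genes and with 3.03% of all genes called lower. They came from 5 role groups. Chordc1, an HSP90 co-chaperone, fell by 1.04 on the log2 scale (SE 0.14, FDR = 1.16e-04, edge of groups 21.6 and 15.5 FPKM). The others were Grpel2, a mitochondrial exchange factor (−0.70, FDR = 0.0097), Hspa13 (−0.68, FDR = 0.0034), Hspa4l, an HSP110 relative (−0.66, FDR = 0.0045), Bag3, an HSP70 exchange factor induced by stress (−0.62, FDR = 0.024), Dnajb4 (−0.60, FDR = 0.0019) and Fkbp4, an HSP90-bound immunophilin (−0.59, FDR = 0.0018).

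With median of ratios scaling 4 of the 7 were called, without NDKO5 the whole list gave 5, and without NDWT replicate 5 it gave 4 (Chordc1, Grpel2, Fkbp4 and Hspa13). None of the 14 TRiC and prefoldin genes, which fold actin and tubulin, none of 5 small heat shock proteins and none of 4 heat shock factors was called in this comparison. Of all genes tested, 3.03% were called lower and 1.74% higher, so 0 in lists this short is not read as a result. On CDAHFD limma called 0 of 76 between genotypes (all genes, 0.496%), with 11 at an unadjusted p under 0.05. For the interaction it called 0 (all genes, 0.647%), with 15 at an unadjusted p under 0.05. The share of all genes under that p was not computed, so nothing is read from the 11 and the 15.

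For CDAHFD against control in WT, 18 of 76 network genes were called higher and 5 lower (all genes, 44.1% and 4.62%), with a median log2FC of 0.16, below the 0.53 of all genes. With median of ratios scaling the split turned to 5 higher and 25 lower, and with quantile normalization to 4 and 12. In TSP-1 null it was 20 higher and 3 lower (41.9% and 4.00%), with a median of 0.20, and 4 higher and 17 lower with median of ratios scaling. The split by direction therefore depended on the scale, and the genes below are those whose call held on both.

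Among small heat shock proteins Hspb2 rose by 2.54 (SE 0.26, FDR = 3.87e-08) in WT and by 2.68 (SE 0.26, FDR = 2.18e-08) in TSP-1 null, and Cryab (alpha-B-crystallin) by 2.19 (SE 0.20, FDR = 9.00e-09) and 1.88 (SE 0.20, FDR = 8.09e-08). Mean Cryab was 1.91 ± 0.51 FPKM in NDWT and 9.17 ± 3.17 in HFWT (SD, n = 5). Both genes are neighbours that are also known from muscle and myofibroblast-like cells, and stellate marker sums were higher in the same libraries, whose part in these values was not tested. Bag2 rose by 1.40 and 1.31 (FDR = 1.18e-06 and 3.00e-06) and Hscb, which serves iron-sulfur cluster assembly in mitochondria, by 1.54 and 1.19 (FDR = 3.48e-09 and 1.23e-07).

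Of 11 HSP90 and co-chaperone genes, 3 were called lower and 1 higher in WT on the FPKM scale. Chordc1 fell by 0.71, Stip1, which links HSP70 to HSP90, by 0.65, and Ahsa2, a relative of the HSP90 activator AHA1, by 0.63 on the log2 scale (FDR = 1.34e-04, 4.07e-04 and 2.05e-05). Bag4 fell by 0.95 in WT and by 0.86 in TSP-1 null (FDR = 1.10e-06 and 4.54e-06), Grpel2 fell by 1.07 in WT (FDR = 1.28e-05), and in TSP-1 null Hspb8 fell by 0.68 (FDR = 7.50e-05) and Clpx, a mitochondrial unfoldase named after its values were seen, by 0.93 (FDR = 1.07e-05). The prefoldin subunit Vbp1 rose by 1.19 in WT (FDR = 3.17e-08).

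**Figure D5:**
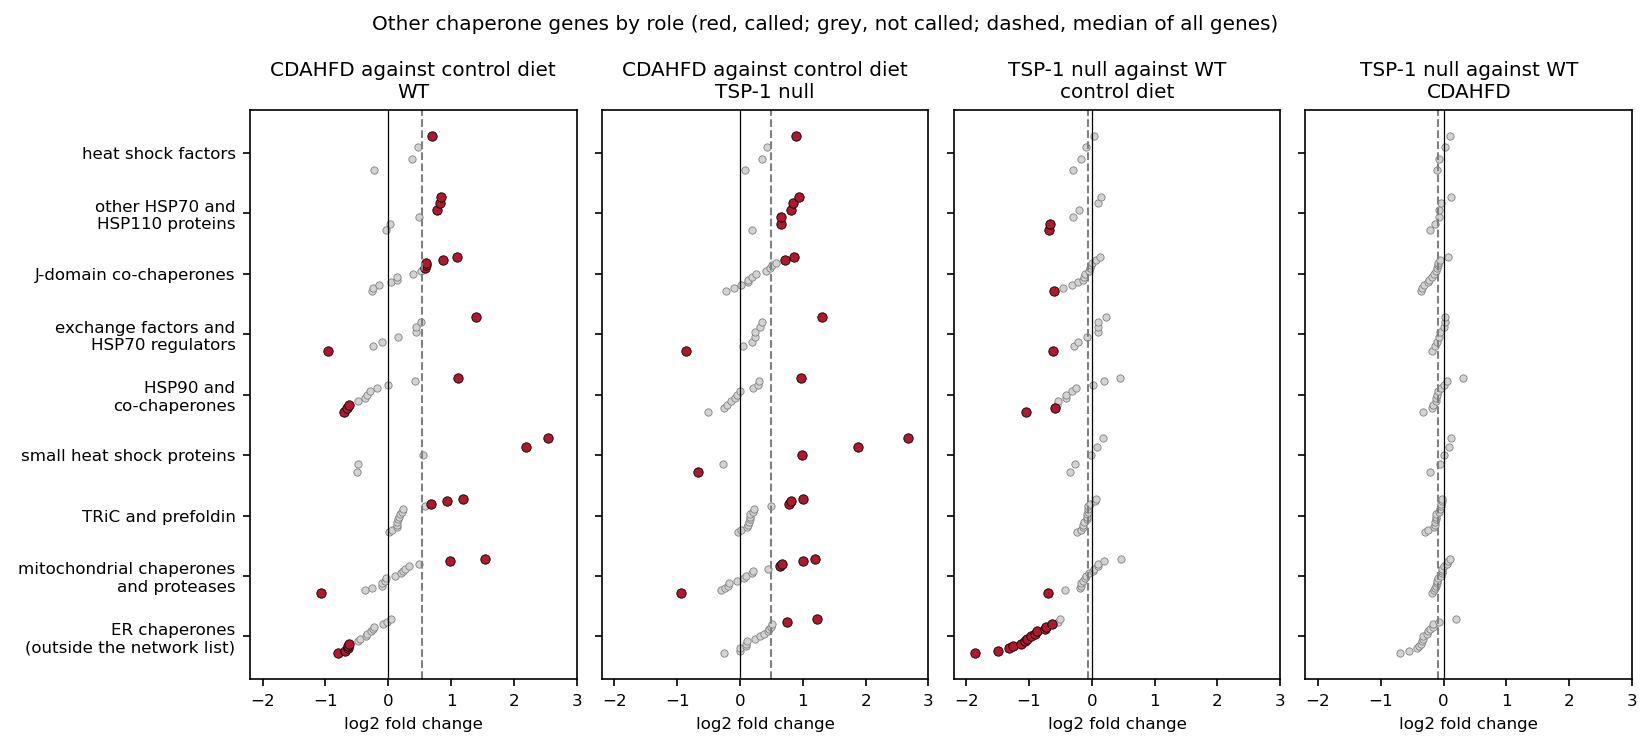
Log2 fold change (x axis) of the 76 tested network genes and 15 ER chaperones, by role (rows), in the 4 comparisons, with called genes in red, others in grey and the median of all genes dashed. ER chaperones lie left of 0 throughout in TSP-1 null against WT on the control diet, and no gene is red between genotypes on CDAHFD.

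Hsf1 itself, the factor that drives the heat shock genes, was not called in any comparison. Mean FPKM on control chow was 9.26 ± 1.63 for WT and 9.46 ± 1.20 for TSP-1 null mice, and on CDAHFD it was 13.0 ± 3.02 and 12.1 ± 0.77 (SD, n = 5). The log2FC between genotypes on the control diet was 0.04 (SE 0.14, FDR = 0.89), and by diet it was 0.47 (SE 0.14) in WT and 0.36 (SE 0.14) in TSP-1 null, close to the median gene. A transcript level does not show the activity of HSF1, which is set mainly after translation. Hsf4 was called higher on CDAHFD in both genotypes (0.70 and 0.89), but on neither diet contrast with median of ratios scaling.

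Chaperones of the endoplasmic reticulum (ER), which answer to the unfolded protein response and not to HSF1, were lower in the same control-diet comparison. Of 15 tested, 13 were called lower in NDKO than in NDWT and none higher (all genes, 3.03% lower), and 12 with median of ratios scaling, with a median log2FC of −0.98 beside −0.07 for all genes. The lowest FDR were those of Canx (calnexin, −0.64, FDR = 2.44e-04, not called with median of ratios scaling), Pdia3, a disulfide isomerase (−0.90, FDR = 4.49e-04), and Dnajb9, a cofactor of BiP (−1.12, FDR = 0.0011). On CDAHFD limma called 0 of 15 between genotypes (all genes, 0.496%), with 3 at an unadjusted p under 0.05. For the interaction it called 0 of 15 (all genes, 0.647%), with 11 at an unadjusted p under 0.05. The share of all genes under that p was not computed, so nothing is read from the 3 and the 11. By diet, 5 were called lower in WT, where 4.62% of all genes were, and 2 were called higher in TSP-1 null, where 41.9% were, against 12 lower in WT and 1 lower in TSP-1 null with median of ratios scaling.

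Cirbp, an RNA-binding protein whose transcript is known to rise as temperature falls, ran opposite to the chaperones. Its FPKM ran from 5.07 to 6.85 for NDWT and from 11.03 to 15.6 for NDKO, and from 17.0 to 20.9 for HFWT and 14.1 to 21.5 for HFKO, so that NDWT lay below every other library. It rose by 1.67 (SE 0.12, FDR = 3.64e-10) with CDAHFD in WT and was higher by 1.11 (SE 0.12, FDR = 1.69e-05) in TSP-1 null than in WT on the control diet, and the interaction was −1.16 (SE 0.17, FDR = 0.0057). With CDAHFD in TSP-1 null it was not called (0.52, beside 0.50 for the median gene), but was called without NDKO5 (0.59). Median of ratios scaling did not call it there. Its within-group r with the mean of the chaperones was −0.65 over 20 libraries and −0.60 without NDKO5. The other cold-inducible transcript listed, Rbm3, rose by 1.29 (FDR = 1.47e-07) with diet in WT, was not called between genotypes on the control diet (0.29), and had an r of 0.49, or 0.14 without NDKO5.

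Immediate early genes, which can respond to handling among other stimuli, and clock genes, which vary with time of day, were listed beside the chaperones. Between genotypes on the control diet, 2 of 8 immediate early genes were called lower (Jun −1.39, FDR = 0.021, and Atf3 −0.84, FDR = 0.017). Of 12 clock genes Per1 was called higher (1.13, FDR = 0.011) and Per2 lower (−0.77, FDR = 0.035). Per2 was not called without NDKO5 or with median of ratios scaling. For each of these genes the groups overlapped. By diet, 7 of 8 immediate early genes in WT and 8 of 8 in TSP-1 null were called higher (all genes, 44.1% and 41.9%), and 5 and 7 with median of ratios scaling, with Atf3 up by 4.79 and 5.22. Clock genes called higher by diet were 4 of 12 in WT and 5 of 12 in TSP-1 null, with 0 lower. With median of ratios scaling they were 3 higher and 4 lower in WT, and 5 higher and 3 lower in TSP-1 null. Between genotypes on CDAHFD, Egr1 alone of both lists was called higher (1.61, FDR = 0.032, groups overlapping), where 0.496% of all genes were called. Body temperature, time of dissection and handling are not in the labels, and their part in the chaperone values was not tested.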

How the data were processed

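Liver poly(A) RNA of 20 mice was sequenced, and the authors deposited 1 table of FPKM per gene, made, per the submitters' processing notes, with STAR 2.5.2 and featureCounts of Subread 1.5.1. The notes name build GRCh38, a human build, whereas the coordinates in the table fit mouse GRCm38. Exons near promoter matches and shared 31-base stretches were read from GENCODE M21, whose gene versions and some ends differ from those of the table. Counting options for strand and shared fragments are not given in the sources used here. Fragment numbers were recovered from FPKM, gene length and a fitted library total (100% of checked values within 0.1 of a whole number) and were used for depth and for shares of the Hspa1a and Hspa1b pair. The precision follows from 15641545 to 23276322 assigned fragments per library and 5 mice per group. Replicates of a group were not copies (lowest chi-square per degree of freedom 13.0 over 40 pairs).

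The main fit was limma 3.58.1 (R 4.3.3), with trend, two-sided, on log2(FPKM + 0.1) for 14524 genes above 0.5 FPKM in at least 5 libraries, with all 20 libraries and 1 mean per group. It was also run on values simulated for 1 comparison only, TSP-1 null against WT on the control diet, with noise independent between genes. That run does not bear on shifts or noise shared by many genes. Fold changes are on the log2(FPKM + 0.1) scale and understate those of low genes. The 10 members and the gene lists were chosen with earlier results of these data known, and the members carry no test. Genes named are the members, Thbs1, up to 4 called network genes per role and comparison with the lowest FDR, Hsf1, the 8 genes most like the members, and up to 3 called genes per side list and comparison. Of the called genes this rule reaches, those named are the ones whose call held on both scales or that the text turns on. Alternatives were other pseudocounts (0.01, 1), filters, scalings, no fold threshold, fewer groups, no trend, a replicate block and each library left out. Sequences are RefSeq (GRCm38.p6), matched by symbol. Same-numbered mice did not deviate together (0 of 30 pairs with r above 0.1), so the numbers do not pair mice.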

Additional observations from a re-analysis of the deposited data

Results flagged for a closer look

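Library NDKO5 stood apart from the other 4 NDKO libraries in Hspa8, at 190.736 FPKM, and in Hsph1, at 3.912 FPKM, each separated from the next library by a gap that was 0.843 and 0.730 of the range of its group. These were the 2 such cases among 40 sets of 5 values examined, and chance gives about 1 in 20. The interaction of diet and genotype had a value of 3.27 on the log2 scale (SE 0.54) for Hspa1b, 2.99 (SE 0.64) for Hspa1a and 0.70 (SE 0.15) for Dnaja1. The genes were proposed from this readout, so these 3 values are a description and carry no test. With 1 library left out in turn, Hspa1b was called in 20 of 20 fits, Dnaja1 in 13 and Hspa1a in 11, and with a replicate block 1 of the 3 was called.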

How the results depend on the processing

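Of 1485 log2 fold changes of the chaperones under the alternatives, 1460 moved by less than 1 SD between mice, 25 moved by more and 0 called values changed sign. Those that moved were mostly diet values under median of ratios scaling or quantile normalization, and Hspa1a with a pseudocount of 1, whose construction shrinks low genes. The counts of called chaperones that moved by over 1.5 times were those for CDAHFD in TSP-1 null (3, against 8 with median of ratios scaling and 5 with no fold threshold) and for the interaction (3, against 1 with a replicate block). Leaving out 1 library gave 6 to 7 called for diet in WT, 2 to 3 for diet in TSP-1 null, 6 to 7 for genotype on the control diet, 0 for genotype on CDAHFD and 1 to 3 for the interaction.

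Network genes called for diet in WT were 23, against 14 with a pseudocount of 1 and 52 with no fold threshold, and 21 to 24 with 1 library left out. For diet in TSP-1 null they were 23, against 15 with a pseudocount of 1, 10 with quantile normalization and 50 with no fold threshold, and 23 to 25 with 1 library left out. For genotype on the control diet they were 7, against 4 with a pseudocount of 1, 4 with median of ratios scaling, 2 with quantile normalization and 17 with no fold threshold, and 4 to 8 with 1 library left out. With no fold threshold 1 was called for genotype on CDAHFD and 1 for the interaction, against 0 each, and with 1 library left out 0 and 0 to 2, the latter without NDWT replicate 2, NDKO replicate 2 or HFWT replicate 1. The cause was not tested.

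The replicate block changed no other count of calls by over 1.5 times. Same-numbered libraries correlated at −0.13 to 0.08, and 8 of 30 matched best with their own number. The median r between chaperones was 0.66, 0.49 without the 2 farthest libraries and 0.43 (without NDKO5) to 0.70 with 1 library left out. Depth limits Hspa1a most, with 7 fragments in its lowest library, and 5 mice per group limit every comparison.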
